A study of Populus ussuriensis with 12 samples.

Results

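The isoprenoid genes described here are the enzymes that make the building blocks of terpenes, join them into chains, and turn the chains into isoprene and other terpenes. They were chosen by words in the UniProt description of the deposited gene table (names of pathway enzymes, prenyl diphosphate synthases and terpene synthases), which matched 76 of 35747 genes. Of these, 20 belonged to the plastid pathway, 10 to the mevalonate pathway, 1 was an isopentenyl diphosphate isomerase and 9 were farnesyl or geranylgeranyl diphosphate synthases or their small subunits. The others were 1 isoprene synthase, 27 further terpene synthases, 4 geranylgeranyl diphosphate reductases and 4 HMG-CoA lyases, enzymes of leucine breakdown that the words of the rule also caught. The names are best matches to known proteins, and no enzyme activity was measured. HMG-CoA reductase, whose description is worded differently, fell outside the rule and is given with the related genes at the end.

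RNA was sequenced from leaves 7 and 8, counted from the shoot tip, of the poplar Populus ussuriensis. The plants were grown in soil for 70 days in a greenhouse and came in the genotypes WT, the wild type, and Pu-miR172d-OE (OE), which overexpresses a microRNA. Plants of each genotype were watered or had water withheld for 4 days, which gave 4 groups of 3 libraries: WT watered and OE watered (replicates 1 to 3), and WT drought and OE drought (replicates 4 to 6). The labels name neither the promoter of the transgene nor the number of transgenic lines, and the level of the microRNA was not analysed here. They also do not say that replicates were separate plants. Every p-value rests on the spread among libraries of the same group, pooled over the groups fitted, and that spread could be technical.

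Plants make the universal precursors isopentenyl and dimethylallyl diphosphate along separate routes. The methylerythritol phosphate (MEP) pathway in the plastid starts from pyruvate and glyceraldehyde phosphate and feeds isoprene, monoterpenes, carotenoids and the phytyl tail of chlorophyll. The mevalonate pathway, outside the plastid, starts from acetyl-CoA and feeds sterols and sesquiterpenes. Poplar leaves are known as strong emitters of isoprene, a volatile made in the chloroplast from dimethylallyl diphosphate.

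Levels are in FPKM, fragments scaled by gene length and library size, so that levels of different genes can be compared per length. Changes are differences of mean log2(FPKM + 1) ± SE, a scale that understates changes of weak genes. The verbs rose and fell mark an adjusted p below 0.05 in limma, with Benjamini-Hochberg adjustment over 25373 genes. Those genes reached 1 FPKM in 3 or more of the 12 libraries. Of the 76 genes, 47 passed this filter and 29 did not. Of the 47, 4 passed only through OE drought libraries, where they are highest (Potri.007G074400, Potri.016G035100, Potri.T001300 and Potri.019G046100), so that the filter favours a difference in their tests. Fragment totals per library, read back from the smallest FPKM steps, were 9682111 to 12131416. The median change over all tested genes was 0.245 in WT drought, -0.126 in OE drought and -0.241 for OE against WT in drought, and median-of-ratios scaling moved these medians to 0.01, -0.03 and -0.03. For the interaction described below, the median moved from -0.28 to 0.04.

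The mesophyll, the photosynthetic tissue of the leaf, was checked by 29 genes of the chlorophyll a-b binding proteins and the small subunit of ribulose bisphosphate carboxylase. Their summed level lay between 38430 and 47000 FPKM in WT watered and between 2270 and 4038 FPKM in WT drought libraries. It lay between 26300 and 38100 FPKM in OE watered and between 198 and 1135 FPKM in OE drought libraries. Of the 26 tested, 24 fell in WT and 25 in OE, and 1 of the 29 was at 0 in each watered group and 0 in the drought groups. In leaf RNA, fewer cells of a type and less RNA per cell cannot be told apart, and the part of the mesophyll change in the results on isoprenoid genes was not tested. Of 32 tested xylem markers, 1 rose and 25 fell in WT, and 2 rose and 21 fell in OE. Of 25 tested phloem markers, 3 rose and 14 fell in WT, and 1 rose and 14 fell in OE. Their summed level was 417 ± 36.5 FPKM in WT watered and 629 ± 425 FPKM in WT drought libraries, where replicate 5 was highest. Of 10 tested epidermis markers, 1 rose and 4 fell in WT, and 3 rose and 7 fell in OE. Of 4 tested guard cell markers, 1 rose and 1 fell in WT, and 1 rose and 2 fell in OE.

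In WT, 11 of the 47 tested genes rose and 12 fell under drought, where 33.9% of all tested genes rose and 21.6% fell. In OE, 15 rose and 10 fell, where 27.7% of all tested genes rose and 34.9% fell. The 15 include Potri.007G074400, Potri.016G035100 and Potri.T001300, which passed the filter only through OE drought libraries. The median change of the 47 was 0.28 in WT and -0.05 in OE, beside 0.245 and -0.126 over all tested genes. The split in WT depends on the scaling: with median-of-ratios factors 7 genes rose and 15 fell, while over all tested genes the split moved from 8596 higher and 5492 lower to 5689 and 6882. For OE drought it gave 16 higher and 9 lower. Calls within some roles had 1 direction in these fits of both genotypes. Mevalonate pathway genes and the isomerase were called only as higher, and the isoprene synthase and geranylgeranyl diphosphate reductases only as lower. The isomerase and the isoprene synthase are 1 tested gene each. In WT, MEP pathway, prenyl chain and terpene synthase genes and HMG-CoA lyases had calls in both directions. WT drought replicate 6 stood apart from the other WT drought libraries in several of the genes below, and OE drought replicate 5 was often the lowest of its group.

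**Figure D1:**
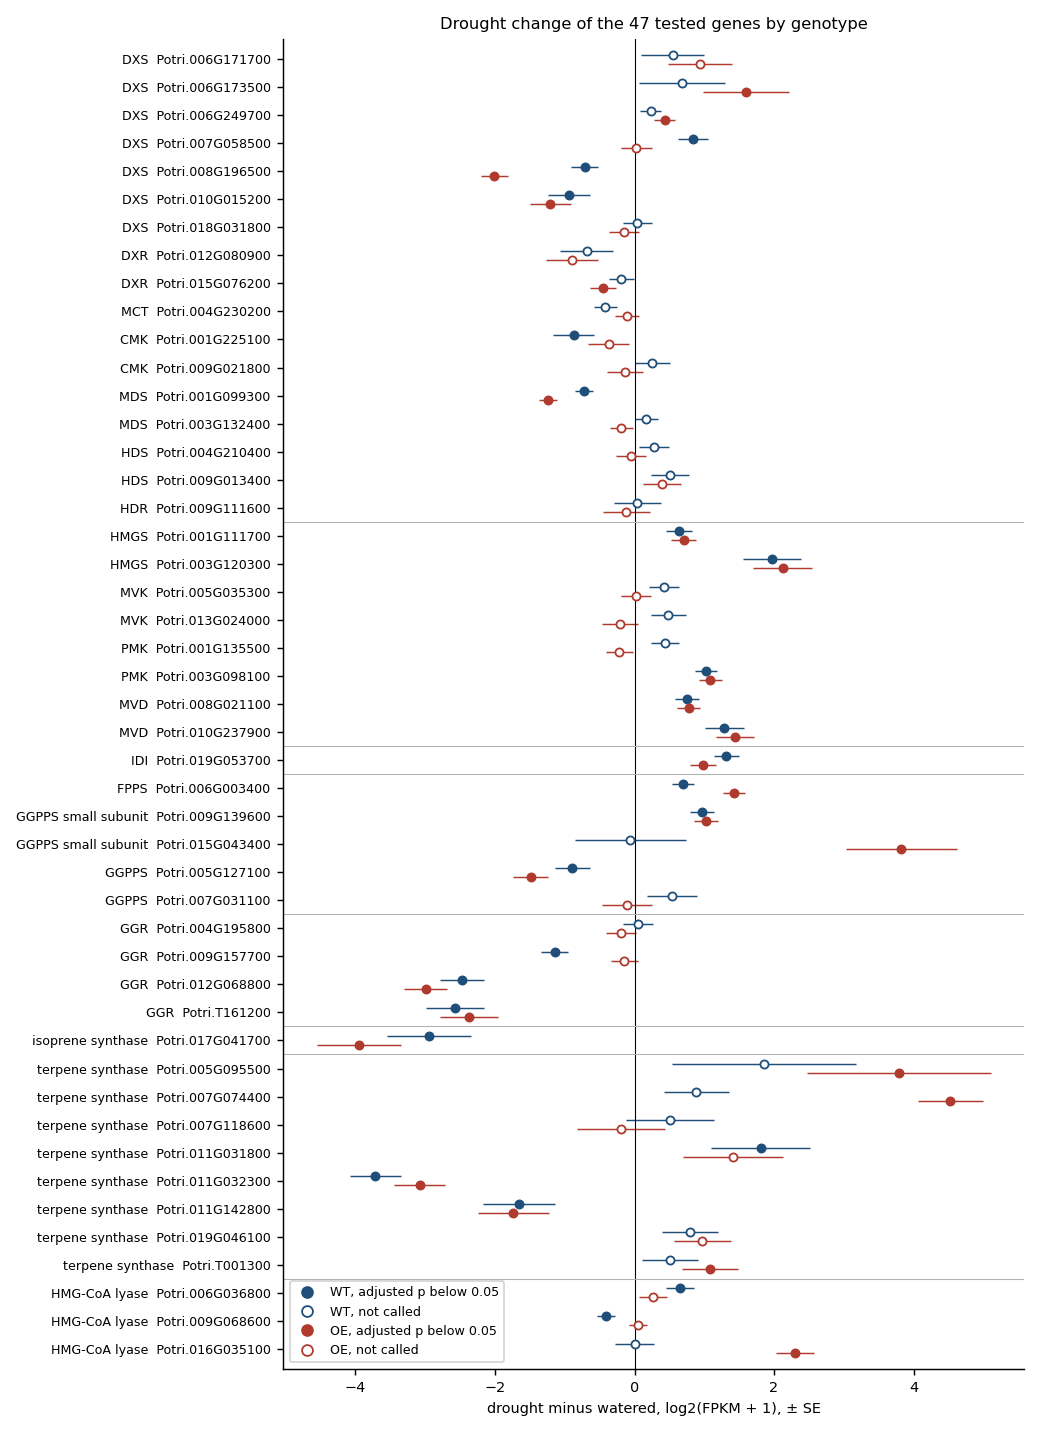
Drought change of each of the 47 tested genes in WT (blue) and OE (red), as the difference of mean log2(FPKM + 1) between drought and watered libraries with its SE (3 libraries in each group). Filled points passed an adjusted p of 0.05; rows are ordered by role, from the plastid pathway at the top through the mevalonate pathway, chain synthases, reductases and terpene synthases to the HMG-CoA lyases. MCT, CMK and MDS are the cytidyl-transferring enzyme, kinase and cyclodiphosphate synthase of the plastid pathway, HMGS, MVK, PMK and MVD the mevalonate enzymes in order, IDI the isomerase, FPPS and GGPPS the farnesyl and geranylgeranyl synthases, and GGR the reductases. The isoprene synthase lies at -2.94 in WT and -3.95 in OE.

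The gene for isoprene synthase, which makes isoprene from dimethylallyl diphosphate, was among the most abundant of the 76 in watered leaves and fell in drought in both genotypes. Potri.017G041700 lies on the minus strand of chromosome 17 at 3417402 to 3428870 in the authors' table (genome build not given in the sources used here). Its level was 265, 187 and 213 FPKM in WT watered and 10.51, 23.0 and 84.1 FPKM in WT drought replicates. In OE it was 230.1, 268 and 137 FPKM in watered and 16.4, 6.02 and 18.1 FPKM in drought replicates. No drought library of either genotype reached the lowest watered one, and WT drought replicate 6 was the highest of the drought libraries. The change was -2.94 ± 0.61 in WT (limma, adjusted p = 0.00167) and -3.95 ± 0.61 in OE (adjusted p = 0.000145). Relative to the median of all tested genes these are -3.19 and -3.82. Both calls held in every alternative, and without WT drought replicate 6 the WT change was -3.73. OE and WT could not be told apart in drought: the difference was -1.11 with a 95% confidence interval of -2.43 to 0.21 (adjusted p = 0.183), and -0.32 without WT drought replicate 6. The mesophyll marker sum was lower in the same libraries, as given above.

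**Figure D2:**
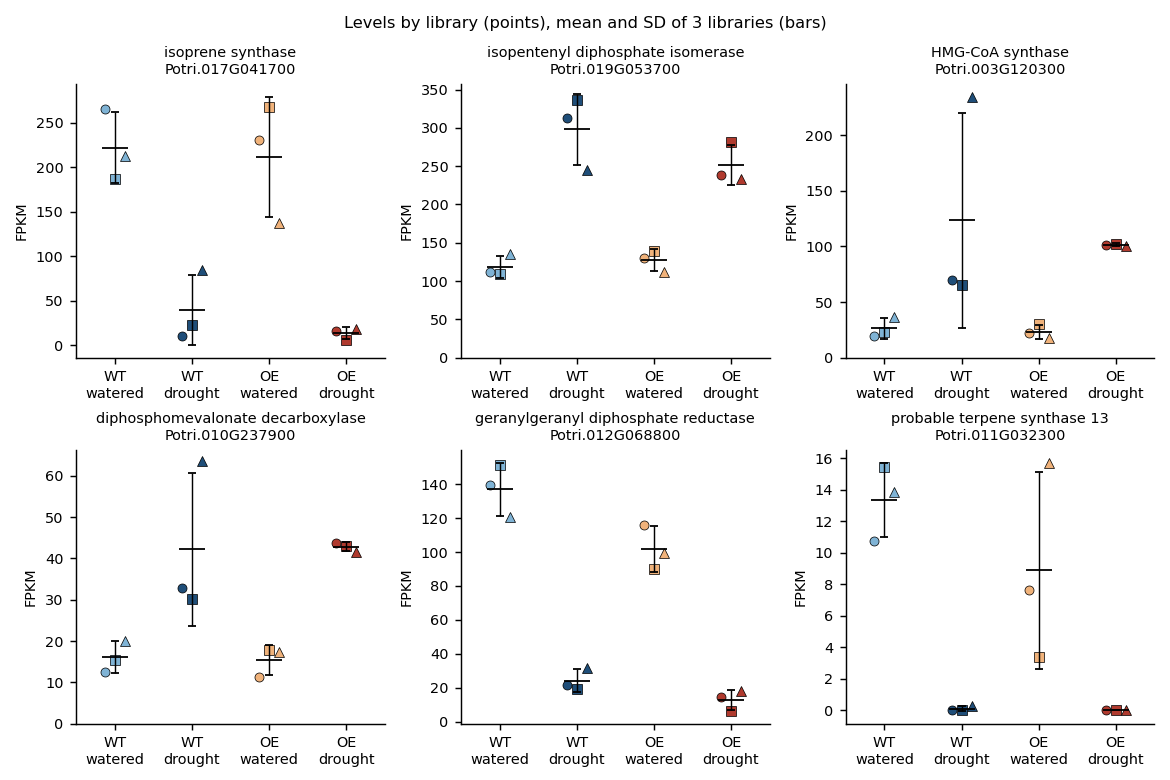
FPKM in each of the 12 libraries for 6 genes: isoprene synthase, isopentenyl diphosphate isomerase, an HMG-CoA synthase, a diphosphomevalonate decarboxylase, a geranylgeranyl diphosphate reductase and probable terpene synthase 13. Points are libraries, bars the mean and SD of 3 libraries, and the axes are linear. Drought libraries lie above watered ones in the isomerase, synthase and decarboxylase panels and below them in the other 3, and WT drought replicate 6 (235 FPKM) stands apart for HMG-CoA synthase.

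Of the 8 tested genes of the mevalonate pathway, 5 rose under drought in each genotype and 0 fell. Over all tested genes 33.9% rose in WT and 27.7% in OE. The median change of the 8 was 0.69 in WT and 0.74 in OE. HMG-CoA synthase joins acetyl-CoA and acetoacetyl-CoA at the start of the pathway. Its gene Potri.003G120300 was at 19.3, 23.1 and 36.7 FPKM in WT watered and at 70.2, 65.2 and 235 FPKM in WT drought replicates. Values in OE were 21.8, 30.1 and 17.3 FPKM in watered and 102, 103 and 100.2 FPKM in drought replicates. All drought libraries thus lay above all watered ones, and WT drought replicate 6 was far above the other drought libraries. The change was 1.97 ± 0.42 in WT (limma, adjusted p = 0.00203) and 2.12 ± 0.42 in OE (adjusted p = 0.000903), and 1.38 in WT without replicate 6 (adjusted p = 0.00129). The other tested HMG-CoA synthase, Potri.001G111700, rose from 21.5 ± 2.23 to 33.9 ± 1.18 FPKM in WT and from 18.7 ± 3.70 to 31.2 ± 6.50 FPKM in OE (mean ± SD, n = 3). Its WT call was lost with median-of-ratios scaling (adjusted p = 0.0797) and with limma-voom on recovered fragments (adjusted p = 0.0529), while its OE call held.

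The later enzymes of the pathway phosphorylate mevalonate in steps and then decarboxylate it to isopentenyl diphosphate. Phosphomevalonate kinase Potri.003G098100 was at 10.9, 12.9 and 12.6 FPKM in WT watered and at 27.1, 21.1 and 29.1 FPKM in WT drought replicates. OE libraries stood at 10.3, 12.97 and 10.52 FPKM in watered and 24.8, 27.3 and 22.9 FPKM in drought replicates. Watered and drought libraries did not overlap, and the changes were 1.02 ± 0.16 in WT (limma, adjusted p = 0.00025) and 1.09 ± 0.16 in OE (adjusted p = 9.44e-05). Diphosphomevalonate decarboxylase Potri.010G237900 was at 12.4, 15.5 and 20.1 FPKM in WT watered, 32.9, 30.2 and 63.6 FPKM in WT drought, 11.3, 17.8 and 17.3 FPKM in OE watered and 43.8, 43.1 and 41.6 FPKM in OE drought replicates. It too rose without overlap, by 1.29 ± 0.28 in WT and 1.44 ± 0.28 in OE, as did its paralogue Potri.008G021100, by 0.75 ± 0.17 and 0.78 ± 0.17 (limma, adjusted p of the 4 changes from 0.000731 to 0.0028). Mevalonate kinases Potri.005G035300 and Potri.013G024000 and the second phosphomevalonate kinase Potri.001G135500 were not called: their changes were 0.42, 0.48 and 0.44 in WT and 0.02, -0.21 and -0.22 in OE. In WT each of the 3 passed the test when a particular library was left out, WT drought replicate 5 for the first kinase (adjusted p = 0.0431), WT drought replicate 4 for Potri.013G024000 (0.0113) and WT drought replicate 6 (0.025) or OE drought replicate 5 (0.0392) for Potri.001G135500. Without WT drought replicate 6, or without OE drought replicate 5, the pathway counted 6 rises of 8 in WT, and with median-of-ratios scaling 4. The summed level of the 10 genes was 109 ± 19.6 FPKM in WT watered, 275 ± 120.1 FPKM in WT drought, 109 ± 13.7 FPKM in OE watered and 243 ± 8.30 FPKM in OE drought libraries.

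**Figure D3:**
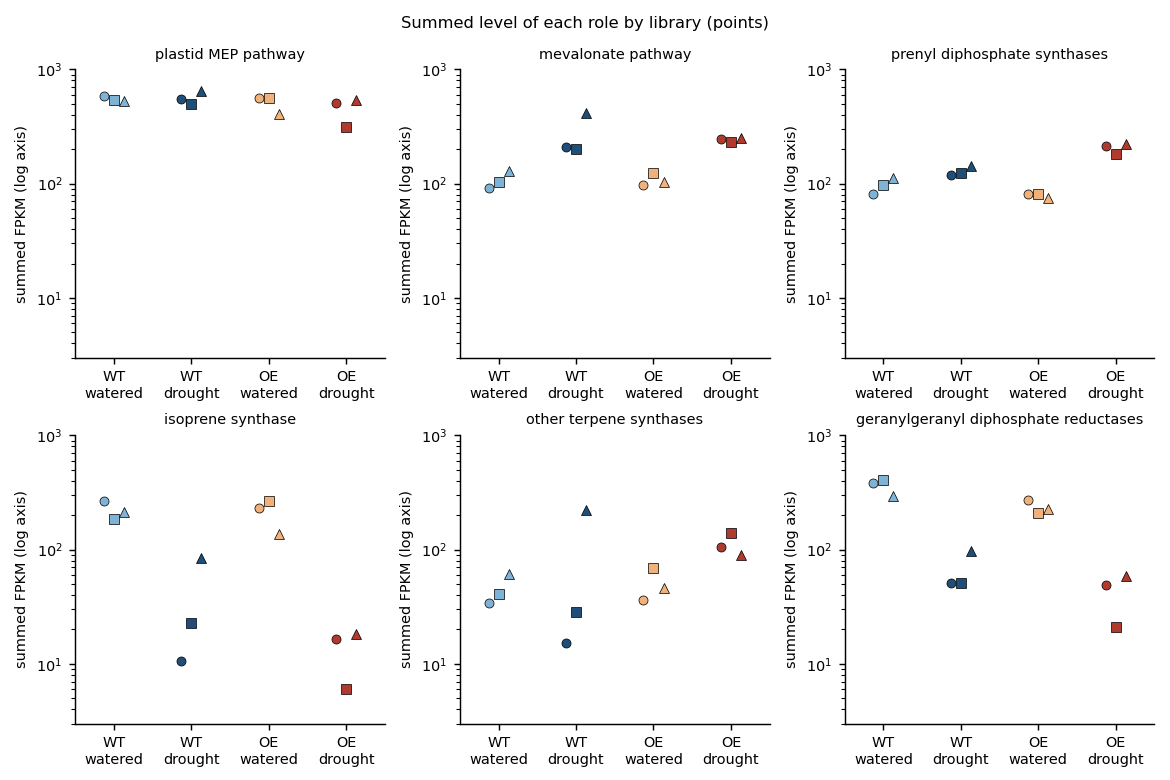
Summed FPKM of the genes of each role in every library, on a logarithmic axis that is the same in all panels. Points are libraries (3 in each group). The mevalonate sum lies between 203 and 413 FPKM in drought and between 91.6 and 130 FPKM in watered libraries, while the MEP sum spans 312 to 651 FPKM with overlapping groups.

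The plastid MEP pathway showed no common direction. Of its 17 tested genes, 1 rose and 4 fell in WT, and 2 rose and 4 fell in OE, with median changes of 0.04 and -0.14. With median-of-ratios scaling 1 rose and 7 fell in WT, with a median of -0.16, so the WT count of falls rests on the scaling. The summed level of the 20 genes was 550.4 ± 35.1 FPKM in WT watered, 563 ± 79.8 FPKM in WT drought, 511 ± 89.3 FPKM in OE watered and 457 ± 125.8 FPKM in OE drought libraries, and the groups overlapped.

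1-Deoxy-D-xylulose 5-phosphate synthase (DXS) catalyses the entry step of the MEP pathway and was represented by 7 tested genes, which changed in different directions. The most abundant, Potri.010G015200, was at 42.5, 42.9 and 37.5 FPKM in WT watered and at 18.1, 18.3 and 27.4 FPKM in WT drought replicates. It fell by 0.94 ± 0.30 in WT (limma, adjusted p = 0.0186) and by 1.21 ± 0.30 in OE (adjusted p = 0.0039), where OE drought replicate 5 was lowest and the change was -0.79 without it. The WT call was lost without WT watered replicate 2, drought replicate 4 or drought replicate 5 (adjusted p from 0.0552 to 0.0624). Potri.008G196500, on the minus strand of chromosome 8 at 13719686 to 13724285, was at 15.9, 18 and 15.8 FPKM in WT watered and at 10.6, 8.39 and 10.1 FPKM in WT drought replicates. In OE it was at 20.8, 23.0 and 18.1 FPKM in watered and at 4.69, 2.95 and 5.80 FPKM in drought replicates. The watered and drought libraries did not overlap in either genotype, and the OE drought libraries lay below the WT drought ones. It fell in both, with changes of -0.72 ± 0.20 in WT (limma, adjusted p = 0.00882) and -2.01 ± 0.20 in OE (adjusted p = 4.23e-06). Another gene, Potri.007G058500, rose in WT from 4.16 ± 0.96 to 8.10 ± 0.32 FPKM, by 0.83 ± 0.22 (adjusted p = 0.00681), and its OE change of 0.03 ± 0.22 was not called.

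The other DXS calls rested on few libraries. Potri.006G249700 rose in OE by 0.43 ± 0.15 (limma, adjusted p = 0.0243), from 10.4 ± 1.82 to 14.2 ± 0.47 FPKM, a call that was lost without OE watered replicate 1 or 3 or OE drought replicate 4 (adjusted p from 0.0738 to 0.0884). Potri.006G173500 was at 1.05, 3.21 and 0.64 FPKM in OE watered and at 7.09, 3.05 and 11.1 FPKM in OE drought replicates, so that the groups overlapped. Its OE change of 1.60 ± 0.62 passed (adjusted p = 0.04), and was lost in 5 of the 12 fits that left out a library (WT drought replicate 5, OE watered replicates 1 and 3, OE drought replicates 4 and 6, adjusted p from 0.0503 to 0.139). Its close relative Potri.006G171700 stayed under 3 FPKM in every library and was not called. In OE it changed by 0.94 ± 0.45, and by 1.32 without OE drought replicate 5, where it passed (adjusted p = 0.0308), as it did without WT watered replicate 3 (0.0461). Gene Potri.018G031800, between 1.63 and 3.14 FPKM, was not called either. The WT change of Potri.006G173500, 0.68 ± 0.62, passed at 1.40 without WT watered replicate 3 (adjusted p = 0.0466).

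The intermediate steps of the MEP pathway showed falls of weaker copies beside abundant copies that were not called. 2-C-methyl-D-erythritol 2,4-cyclodiphosphate synthase Potri.001G099300 was at 18.5, 18.03 and 17.3 FPKM in WT watered and at 9.95, 9.96 and 11.6 FPKM in WT drought replicates. The OE values were 20.3, 18.1 and 16.6 FPKM in watered and 7.35, 6.63 and 7.51 FPKM in drought replicates. It fell without overlap, by 0.72 ± 0.13 in WT (limma, adjusted p = 0.000765) and by 1.24 ± 0.13 in OE (adjusted p = 8.52e-06). The other copy, Potri.003G132400, was about an order of magnitude more abundant in drought, with means of 119 ± 16.9 FPKM (WT) and 96.0 ± 6.82 FPKM (OE), and its changes of 0.17 ± 0.17 and -0.19 ± 0.17 were not called. The kinase of the pathway, 4-diphosphocytidyl-2-C-methyl-D-erythritol kinase, had a copy that fell in WT by 0.87 ± 0.29 (Potri.001G225100, adjusted p = 0.0232) and a more abundant copy, Potri.009G021800, that was not called (0.26 ± 0.25 in WT). The WT fall of Potri.001G225100 was lost without WT watered replicate 1 or 2 or WT drought replicate 5 or 6 (adjusted p from 0.0542 to 0.0944).

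The reductoisomerase of the MEP pathway (DXR) follows DXS. Its gene Potri.015G076200 was at 19.2, 20.8 and 17.3 FPKM in OE watered and at 14.9, 9.79 and 17.1 FPKM in OE drought replicates. OE drought replicate 6 lay just below the lowest watered library and replicate 5 far below it. The gene fell in OE by 0.46 ± 0.18 (limma, adjusted p = 0.0477), a call lost in 10 of the 12 fits that left out a library (adjusted p from 0.0521 to 0.181) and a change of -0.24 without OE drought replicate 5. The other DXR gene, Potri.012G080900, was at 15.2, 12.01 and 29.0 FPKM in WT drought and at 15.4, 5.67 and 16.2 FPKM in OE drought replicates, against 28.9 ± 2.80 and 22.5 ± 5.63 FPKM in watered leaves. Its changes of -0.69 ± 0.38 and -0.90 ± 0.38 were not called (adjusted p = 0.141 and 0.0565), and both moved across the threshold with small changes of the fit. The WT change was -1.04 without WT drought replicate 6 (adjusted p = 0.0332) and passed with median-of-ratios scaling (0.0415) and limma-voom (0.0487). The OE change passed without WT drought replicate 6, OE watered replicate 3 or OE drought replicate 4 or 6 (adjusted p from 0.0328 to 0.0442), and was -0.45 without OE drought replicate 5. The gene of the cytidyl-transferring enzyme, Potri.004G230200, changed by -0.42 ± 0.17 in WT, just outside the threshold (adjusted p = 0.0537). It passed at -0.69 with median-of-ratios scaling (0.0117) and at -0.70 with limma-voom (0.0149), and also without WT watered replicate 3 (0.0155) or WT drought replicate 6 (0.0458).

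The last enzymes of the MEP pathway, the hydroxymethylbutenyl diphosphate synthase (HDS) and reductase (HDR), release isopentenyl and dimethylallyl diphosphate, and none of their tested genes was called. HDR Potri.009G111600 was the most abundant MEP gene, at 191, 168 and 169.8 FPKM in WT watered and at 174, 148 and 229.7 FPKM in WT drought replicates. Values in OE were 171, 165 and 102 FPKM in watered and 169, 71.7 and 187 FPKM in drought replicates, so that all groups overlapped. Its changes were 0.04 ± 0.34 in WT and -0.12 ± 0.34 in OE. HDS Potri.009G013400 was at 63.3 ± 7.67 and 92.6 ± 28.6 FPKM in WT watered and drought, and HDS Potri.004G210400 at 26.6 ± 4.19 and 32.5 ± 4.58 FPKM. Without OE drought replicate 5 Potri.009G013400 changed by 0.66 in OE and passed (adjusted p = 0.0473).

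Isopentenyl diphosphate isomerase interconverts isopentenyl and dimethylallyl diphosphate, and its gene rose in both genotypes. Potri.019G053700, on the plus strand of chromosome 19 at 8259111 to 8262469, was at 112, 109 and 135 FPKM in WT watered and at 312, 336 and 246 FPKM in WT drought replicates. OE libraries stood at 129.9, 139.9 and 112 FPKM in watered and 239, 281 and 234 FPKM in drought replicates. All drought libraries lay above all watered ones. The change was 1.31 ± 0.18 in WT (limma, adjusted p = 0.000107) and 0.98 ± 0.18 in OE (adjusted p = 0.000563), and both calls held in every refit (another setting, or a library left out), though the OE change is just under a log2 fold change of 1.

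Prenyl diphosphate synthases join isoprene units head to tail: farnesyl diphosphate synthase makes the precursor of sterols and sesquiterpenes, and geranylgeranyl diphosphate synthase that of carotenoids and phytol. Of the 5 tested, 2 rose and 1 fell in WT, and 3 rose and 1 fell in OE. Farnesyl pyrophosphate synthase 1 (Potri.006G003400) was at 33.7, 38.8 and 37.7 FPKM in WT watered and at 54.0, 73.4 and 54.9 FPKM in WT drought replicates. In OE it was at 31.4, 33.5 and 26.97 FPKM in watered and at 84.2, 85.9 and 81.6 FPKM in drought replicates. All drought libraries lay above the watered ones, and those of OE lay above those of WT. It rose by 0.70 ± 0.16 in WT (limma, adjusted p = 0.0027), a call lost with median-of-ratios scaling (adjusted p = 0.0784), and by 1.43 ± 0.16 in OE (adjusted p = 9.89e-06).

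Geranylgeranyl pyrophosphate synthase Potri.005G127100 was at 24.2, 28.4 and 23.0 FPKM in WT watered and at 15.6, 11.3 and 12.6 FPKM in WT drought replicates. The OE values were 22.3, 18.7 and 20.1 FPKM in watered and 8.62, 3.67 and 8.66 FPKM in drought replicates. It fell without overlap, by 0.89 ± 0.25 in WT (limma, adjusted p = 0.0107) and by 1.49 ± 0.25 in OE (adjusted p = 0.000302). The other tested copy, Potri.007G031100, was not called, with changes of 0.54 ± 0.36 and -0.10 ± 0.36. The gene described as a small subunit of a heterodimeric geranylgeranyl pyrophosphate synthase, Potri.009G139600, rose without overlap from 12.98 ± 0.46 to 26.4 ± 3.65 FPKM in WT and from 12.6 ± 2.65 to 26.5 ± 3.40 FPKM in OE. Its changes were 0.96 ± 0.17 (adjusted p = 0.000677) and 1.03 ± 0.17 (adjusted p = 0.000283), and small subunits are known to alter the chain length or activity of their large partner.

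Geranylgeranyl diphosphate reductase makes the phytyl chain of chlorophyll and tocopherol, and its abundant genes fell. Potri.012G068800 was at 139, 151 and 120.5 FPKM in WT watered and at 22.0, 19.2 and 31.8 FPKM in WT drought replicates. Values in OE were 116, 89.8 and 99.6 FPKM in watered and 14.4, 6.21 and 18.04 FPKM in drought replicates. Watered and drought libraries did not overlap, and the changes were -2.47 ± 0.31 in WT (limma, adjusted p = 5.89e-05) and -2.995 ± 0.31 in OE (adjusted p = 7.27e-06). Potri.T161200 fell in the same manner, from 218 ± 42.4 to 38.5 ± 21.0 FPKM in WT. Its WT change was -2.57 ± 0.42 (adjusted p = 0.000346). In OE its mean went from 128 ± 21.4 to 26.4 ± 13.3 FPKM (-2.38 ± 0.42, adjusted p = 0.000392). The weak Potri.009G157700 fell in WT by 1.15 ± 0.20 (adjusted p = 0.000474), and its OE change of -0.15 ± 0.20 was not called. The change of Potri.004G195800 was 0.05 ± 0.22 in WT and -0.19 ± 0.22 in OE, not called. Mesophyll marker sums were lower in the same libraries.

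Of the 27 terpene synthases other than isoprene synthase, 8 passed the filter. In WT 1 rose and 2 fell, where 33.9% of all tested genes rose and 21.6% fell. In OE 3 rose and 2 fell, where 27.7% of all tested genes rose and 34.9% fell. Among the OE rises, Potri.007G074400 (described below) and Potri.T001300 passed the filter only through OE drought libraries. Terpene synthases turn prenyl diphosphates into volatile and defence terpenes. Probable terpene synthase 13 (Potri.011G032300), whose KEGG entry in the authors' table is a linalool synthase, was at 10.8, 15.4 and 13.9 FPKM in WT watered and at 0, 0 and 0.28 FPKM in WT drought replicates. OE libraries stood at 7.63, 3.37 and 15.7 FPKM in watered and 0.04, 0 and 0 FPKM in drought replicates. The drought libraries of WT together held 7 fragments of it and those of OE 1, against 861 and 568 in watered libraries. It fell by 3.71 ± 0.37 in WT (limma, adjusted p = 1.07e-05) and by 3.08 ± 0.37 in OE (adjusted p = 2.23e-05), the largest fall of the 47 genes in WT. The gene of an alpha-farnesene synthase, Potri.011G031800, lies 38.1 kb from it on chromosome 11. It was at 0.23, 0.70 and 8.03 FPKM in WT watered and at 4.14, 8.46 and 15.5 FPKM in WT drought replicates, with overlap. Its WT change of 1.81 ± 0.71 passed narrowly (adjusted p = 0.049) and was lost in 9 of the 12 fits that left out a library (adjusted p from 0.0527 to 0.184), 1.39 without WT drought replicate 6, while its OE change of 1.41 ± 0.71 was not called. The OE change was 2.04 and passed without OE drought replicate 5 (adjusted p = 0.0325).

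A germacrene D synthase gene (Potri.011G142800), of a sesquiterpene enzyme, was at 15.7, 13.3 and 16.3 FPKM in WT watered and at 2.07, 1.94 and 13.5 FPKM in WT drought replicates. WT drought replicate 6 reached the range of the watered libraries, where the other drought libraries did not. It fell by 1.66 ± 0.52 in WT (limma, adjusted p = 0.0169), by 2.42 without WT drought replicate 6, and the call was lost without drought replicate 4 or 5 (adjusted p = 0.0722 and 0.071). In OE it fell without overlap from 13.7 ± 5.54 to 3.34 ± 1.15 FPKM, by 1.74 ± 0.52 (adjusted p = 0.0114).

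Probable terpene synthase 3 (Potri.005G095500) was at 1.76, 3.24 and 9.51 FPKM in WT watered and at 4.25, 5.87 and 159 FPKM in WT drought replicates. In OE it was at 0.59, 25.8 and 0.10 FPKM in watered and at 46.0, 70.2 and 36.0 FPKM in drought replicates. WT drought replicate 6 alone carried the high WT drought mean, and OE drought libraries lay above OE watered ones. The OE rise of 3.79 ± 1.32 passed (limma, adjusted p = 0.0251) and was lost without OE watered replicate 1 or 3 or OE drought replicate 4 or 5 (adjusted p from 0.0529 to 0.102). The WT change was 1.85 ± 1.32, and 0.27 without replicate 6, not called in either fit. Potri.T001300, described as terpene synthase 10, stayed under 3 FPKM, and its OE rise of 1.08 ± 0.40 (adjusted p = 0.0345, and 0.0462 with no filter) was lost without OE watered replicate 1 or 3 or OE drought replicate 4 or 5 (adjusted p from 0.0888 to 0.132). Terpene synthase 10 gene Potri.019G046100 was not called (adjusted p = 0.112 in WT and 0.0529 in OE). Its OE change passed in several refits, among them median-of-ratios scaling (0.0355) and limma-voom (0.0236), and its WT change without WT drought replicate 4 (0.0377). Probable terpene synthase 12 (Potri.007G118600), which the table's KEGG entry also names an isoprene synthase, was at 6.72 ± 2.75 FPKM in WT watered and 12.8 ± 12.4 FPKM in WT drought libraries and was not called in any comparison. WT drought replicate 6 carried that mean: the WT change was 0.51 ± 0.63 with it and -0.19 without it.

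HMG-CoA lyase splits HMG-CoA in leucine breakdown and is no step of isoprenoid synthesis. Potri.009G068600 fell in WT from 29.7 ± 3.71 to 22.1 ± 0.48 FPKM, by 0.41 ± 0.13 (limma, adjusted p = 0.0191), and lost the call without WT watered replicate 3 (adjusted p = 0.0874). Potri.006G036800 rose in WT by 0.65 ± 0.20 (adjusted p = 0.0167), which was lost without WT watered replicate 2 or WT drought replicate 6 (adjusted p = 0.0733 and 0.0516) and with median-of-ratios scaling (0.0848). Neither was called in OE.

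In watered leaves no isoprenoid gene that passed the filter was called between the genotypes. With no filter on low values, 1 gene from below the filter was called higher in OE. Of the 47 tested genes, 0 were higher and 0 lower in OE than in WT by limma, where 0.0985% of all tested genes were higher and 0.0394% lower. At an unadjusted p under 0.05, 1 of the 47 passed, and limma-voom on recovered fragments called 0. The smallest adjusted p of the 47 was 0.493. Isoprene synthase was at 222 ± 39.9 FPKM in WT watered and 212 ± 67.4 FPKM in OE watered libraries.

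In drought, OE differed from WT in 8 of the 47 genes, 4 higher and 4 lower, where 9.19% of all tested genes were higher and 20.2% lower. This comparison shares its libraries with the drought comparisons of each genotype. Its split depends on scaling: with median-of-ratios factors 8 were higher and 1 lower, and over all tested genes the split moved from 2333 higher and 5122 lower to 3835 and 2531. Of the 8 calls, 4 held in every refit: Potri.007G074400, Potri.015G043400 and Potri.016G035100 were higher, and the DXS gene Potri.008G196500 was lower, the last by just under a log2 fold change of 1. For the interaction, the difference between the drought changes of OE and WT, 5 genes were called higher and 1 lower, where 4.54% of all tested genes were higher and 10.2% lower. Of these 6 calls, those of Potri.008G196500 and Potri.016G035100 held in every alternative. Potri.007G074400 and Potri.016G035100, counted as higher in both comparisons, passed the filter only through OE drought libraries. The filter thus favours a difference in their tests, and their holding in refits carries less weight.

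A gene described as probable terpene synthase 6, Potri.007G074400, was high in OE drought libraries alone. It lies on the plus strand of chromosome 7 at 9786796 to 9791269. Its description rests on a weak UniProt match with a score of 62, where the other terpene synthases scored 112 to 793, though the table also names a terpene synthase domain. It was at 0, 0 and 0.05 FPKM in WT watered, 0.24, 2.06 and 0.73 FPKM in WT drought, 0.09, 2.17 and 0 FPKM in OE watered and 30.3, 56.1 and 22.5 FPKM in OE drought replicates. In fragments the OE drought libraries together held 2780 and the WT drought libraries 77. OE drought libraries did not overlap those of any other group, and the gene passed the filter only through them. OE exceeded WT in drought by 4.21 ± 0.47 (limma, adjusted p = 0.000204, and 0.000387 with no filter), and the gene rose in OE by 4.52 ± 0.47 (adjusted p = 6.71e-06), while its WT change of 0.88 ± 0.47 was not called. The interaction was 3.64 ± 0.66 (adjusted p = 0.00736), a call lost with a pseudocount of 0.1 (adjusted p = 0.0979) and with limma-voom (adjusted p = 0.358). WT values reached at most 2.06 FPKM, where log2(FPKM + 1) understates changes, so a difference in relative change is not shown.

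The other small subunit gene of geranylgeranyl pyrophosphate synthase, Potri.015G043400, was likewise highest in OE drought libraries. It lies on the plus strand of chromosome 15 at 4271866 to 4274642, and its UniProt match is weak, with a score of 121. It was at 2.47, 4.40 and 18.3 FPKM in WT watered, 1.38, 3.48 and 28.7 FPKM in WT drought, 4.15, 3.60 and 6.10 FPKM in OE watered and 83.5, 61.4 and 89.4 FPKM in OE drought replicates. WT watered replicate 3 and WT drought replicate 6 stood above the other WT libraries and below every OE drought library. OE exceeded WT in drought by 3.52 ± 0.80 (limma, adjusted p = 0.00852), and by 4.58 without WT drought replicate 6 (adjusted p = 0.000403). The rise in OE was 3.82 ± 0.80 (adjusted p = 0.0013) and the WT change -0.06 ± 0.80, not called. The interaction was 3.89 ± 1.12 (adjusted p = 0.0407), and 10 of the 12 fits that left out a library lost it (adjusted p from 0.057 to 0.0873), as did a pseudocount of 0.1 (0.0556) and no filter (0.0614), though without WT drought replicate 6 it was 4.95 (adjusted p = 0.00214).

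DXS Potri.008G196500, described above, was lower in OE drought than in WT drought libraries by 0.99 ± 0.20 (limma, adjusted p = 0.00464), and its fall in OE exceeded that in WT by 1.29 ± 0.28 (adjusted p = 0.0145). Farnesyl pyrophosphate synthase 1 (Potri.006G003400) was higher in OE drought by 0.47 ± 0.16 (adjusted p = 0.0396), and its interaction was 0.73 ± 0.22 (adjusted p = 0.0457). Leaving out a library lost the former call in 9 of the 12 fits (adjusted p from 0.0533 to 0.133) and the latter in 10 (0.0551 to 0.107). Reductase Potri.009G157700 was at 4.07, 2.91 and 3.62 FPKM in WT watered, 1.21, 0.97 and 0.94 FPKM in WT drought, 2.32, 1.497 and 2.94 FPKM in OE watered and 1.72, 2.09 and 1.85 FPKM in OE drought replicates. WT drought libraries lay below all others. Its interaction of 1.00 ± 0.28 (adjusted p = 0.035) was lost in 10 of the 12 fits that left out a library (adjusted p from 0.052 to 0.0809).

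HMG-CoA lyase gene Potri.016G035100, a model of only 210 bases with a weak UniProt match (score 88.6), was listed at 0 in all WT libraries. The OE values were 0.89, 0 and 0 FPKM in watered and 7.85, 3.69 and 4.39 FPKM in drought replicates. These values rest on 2 fragments in OE watered and 40 in OE drought libraries, so their counting error is large. The gene passed the filter through the OE drought group alone. WT libraries, all at 0, add no spread to the pooled estimate behind its p-values. OE exceeded WT in drought by 2.60 ± 0.28 on the log2(FPKM + 1) scale (limma, adjusted p = 0.000173, and 0.000283 with no filter), a fitted value that is no fold change because WT was at 0. Its interaction was 2.30 ± 0.39 (adjusted p = 0.00595, and 0.0084 with no filter).

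**Figure D4:**
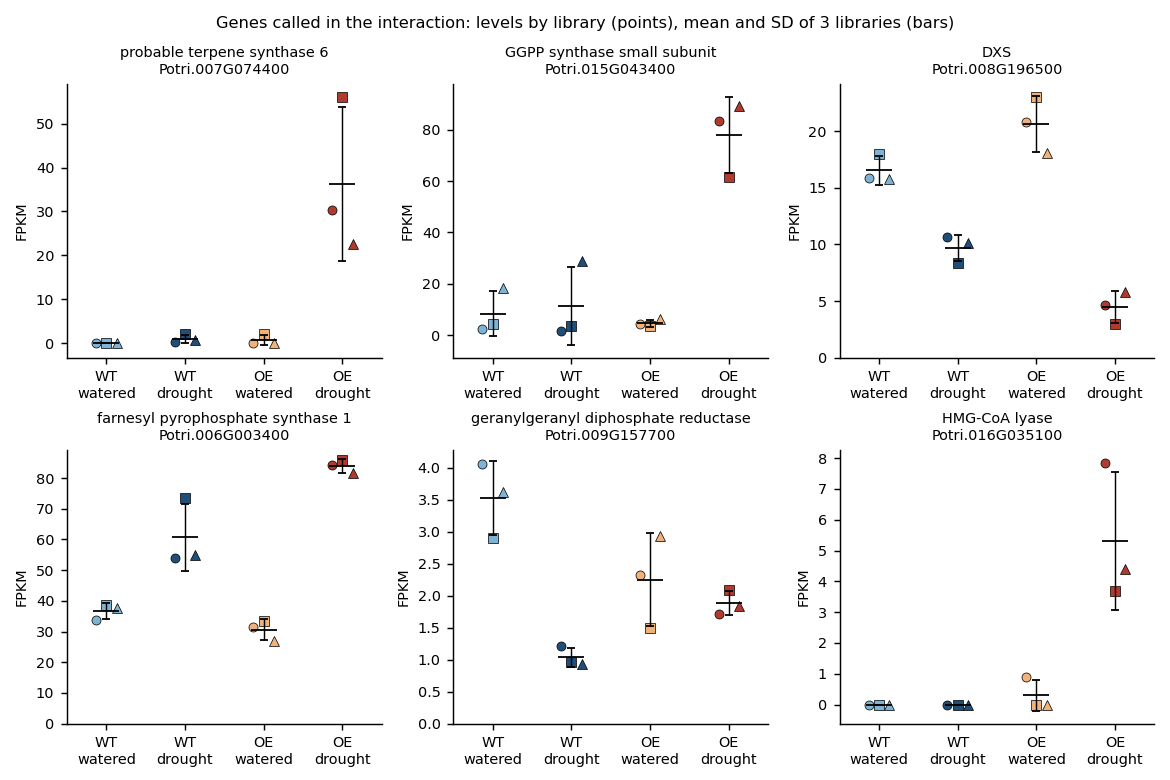
FPKM in each of the 12 libraries for the 6 genes called in the interaction of genotype and drought. Points are libraries, bars the mean and SD of 3 libraries, and the axes are linear. Probable terpene synthase 6 (22.5 to 56.1 FPKM), the small subunit gene (61.4 to 89.4 FPKM) and the HMG-CoA lyase gene (3.69 to 7.85 FPKM) are high in OE drought libraries only, and the DXS gene is lowest there.

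The remaining calls of OE against WT in drought were falls of genes that also fell under drought, and none of them held in every refit. OE was lower by 0.95 ± 0.31 for the reductase Potri.012G068800 (limma, adjusted p = 0.0395), by 0.90 ± 0.25 for the geranylgeranyl pyrophosphate synthase Potri.005G127100 (adjusted p = 0.0217) and by 0.49 ± 0.13 for the cyclodiphosphate synthase Potri.001G099300 (adjusted p = 0.0177). With median-of-ratios scaling their adjusted p were 0.118, 0.0609 and 0.286. Without OE drought replicate 5 the differences of the former pair were -0.53 (adjusted p = 0.12) and -0.55 (adjusted p = 0.0439). The call of Potri.012G068800 was lost in 9 of the 12 fits that left out a library, and that of Potri.005G127100 without WT drought replicate 4 (adjusted p = 0.0836). Summed mesophyll marker levels were lower in OE drought than in WT drought libraries, and 23 of the 26 tested markers were called lower.

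Genes on either side of the pathway, 48 tested of 76 listed, were read from the same fits. In WT 18 rose and 9 fell, and in OE 19 rose and 14 fell, beside the shares of all tested genes given above. HMG-CoA reductase makes mevalonate and is regarded as the controlling step of that pathway. Of its 4 tested genes, 3 rose in WT, and 3 rose and 1 fell in OE. Potri.004G208500 was at 3.07, 4.38 and 12.5 FPKM in WT watered, 28.7, 54.0 and 93.0 FPKM in WT drought, 3.77, 9.12 and 5.05 FPKM in OE watered and 87.4, 85.0 and 93.5 FPKM in OE drought replicates. Drought libraries lay above watered ones, with changes of 3.01 ± 0.47 in WT (limma, adjusted p = 0.000265) and 3.76 ± 0.47 in OE (adjusted p = 3.01e-05). Potri.002G004000 rose by 0.82 ± 0.20 and 0.94 ± 0.20. Potri.009G169900 rose by 1.96 ± 0.73 in WT (adjusted p = 0.0386; 1.17 without WT drought replicate 6, adjusted p = 0.154) and by 3.39 ± 0.73 in OE. The WT call of the latter was lost in 6 of the 12 fits that left out a library. Potri.005G257000 was at 22.6, 19.1 and 21.4 FPKM in WT drought and at 12.9, 10.1 and 12.8 FPKM in OE drought replicates. It fell in OE by 1.00 ± 0.14 (adjusted p = 6.03e-05) and did not change past the threshold in WT (-0.04 ± 0.14), with an interaction of -0.96 ± 0.19 (adjusted p = 0.0118).

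Cytosolic acetyl-CoA acetyltransferase supplies the mevalonate pathway, and Potri.014G168700 rose by 2.09 ± 0.21 in WT (limma, adjusted p = 1.22e-05) and by 2.61 ± 0.21 in OE (adjusted p = 1.15e-06), 2 of 2 tested genes rising in WT and 1 in OE. In the branch to sterols, squalene synthases counted 1 rise of 2 in WT and 2 in OE, led by Potri.004G161200 (0.43 ± 0.15 in WT and 1.24 ± 0.15 in OE). Its WT call was lost without WT watered replicate 1 or 2 or WT drought replicate 4 (adjusted p from 0.0828 to 0.114). Squalene monooxygenases went in both directions, with 2 rises and 2 falls of 8 in each genotype. Potri.002G114500 was at 4.01, 3.09 and 4.84 FPKM in WT watered, 46.9, 44.4 and 42.6 FPKM in WT drought, 3.62, 5.81 and 2.83 FPKM in OE watered and 53.1, 71.5 and 47.1 FPKM in OE drought replicates. Watered and drought libraries were far apart, and it rose by 3.21 ± 0.23 and 3.54 ± 0.23 (limma, adjusted p = 8.8e-07 and 2.21e-07). Of 6 cycloartenol synthases, which close the sterol ring, 1 rose in WT, and 2 rose and 1 fell in OE, with the largest change in Potri.T126100 (1.72 ± 0.23 in OE). Its WT rise of 0.63 ± 0.23 was lost in 5 of the 12 fits that left out a library. Beta-amyrin synthases, which make triterpenes, counted 2 rises and 1 fall of 3 in each genotype, with the largest change a fall of Potri.004G015600 by 1.96 ± 0.22 in OE. Lupeol synthases counted 0 calls of 2 in WT and 2 falls in OE, and Potri.001G049200 fell there by 0.93 ± 0.24.

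In the plastid branches, phytoene synthase, the entry to carotenoids, fell in WT for 2 of 3 genes, with Potri.002G056800 at 228, 229.5 and 172 FPKM in WT watered and at 16.6, 16.6 and 89.8 FPKM in WT drought replicates (-2.78 ± 0.50, limma, adjusted p = 0.000741). In OE 1 rose and 1 fell. Phytoene synthase Potri.005G205800 fell in both genotypes, with changes of -1.32 in WT and -1.10 in OE. Potri.017G138900 rose in OE by 1.197 and was not called in WT. It was higher in OE than in WT in drought by 0.96, with an interaction of 1.186, and these calls held in every refit. Potri.002G056800 was also called higher in OE in drought, a call lost in 10 of the 12 fits that left out a library. Solanesyl diphosphate synthases, which make the side chain of plastoquinone and ubiquinone, counted 2 rises and 1 fall of 3 in WT and 1 of each in OE, with changes of -2.02 ± 0.39 and -2.18 ± 0.39 for Potri.001G380500. Of 2 homogentisate transferases, Potri.006G197601 fell by 0.93 ± 0.25 and 1.02 ± 0.25. Chlorophyll synthases, which attach the phytyl tail, counted 0 calls of 2 in WT and 2 falls in OE. The larger, Potri.006G102100, fell in OE by 0.76 ± 0.24 (adjusted p = 0.0174), lost without OE watered replicate 1 or OE drought replicate 5 (adjusted p = 0.0616 and 0.0731). The ent-kaurene synthase of gibberellin synthesis, Potri.008G082400, rose in WT by 1.94 ± 0.35 (adjusted p = 0.000733), and its OE change of 0.35 ± 0.35 was not called.

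Among genes for long chains and protein prenylation, dehydrodolichyl diphosphate synthases counted 1 rise and 1 fall of 4 in WT and 2 rises and 1 fall in OE. Potri.004G152800 was at 21.6, 18.4 and 11.6 FPKM in WT drought and at 7.63, 4.29 and 7.41 FPKM in OE drought replicates, and fell in OE by 1.68 ± 0.24 (limma, adjusted p = 9.1e-05). Its interaction was -1.71 ± 0.34 (adjusted p = 0.0114). Protein prenyltransferase subunits counted 3 rises and 1 fall of 6 in each genotype, with the largest change in Potri.013G012500 (0.85 ± 0.28 in WT and 1.10 ± 0.28 in OE). The WT call of that gene was lost in 4 of the 12 fits that left out a library (adjusted p from 0.0576 to 0.0877). In watered leaves 0 of the 48 were called in either direction between genotypes, where 0.0985% of all tested genes were higher and 0.0394% lower. In drought 6 were higher and 6 lower in OE, where 9.19% of all tested genes were higher and 20.2% lower. The split over all tested genes depends on scaling, as given above, and that of the 48 under other scaling is not given here.

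The 29 genes below the filter never exceeded 1.64 FPKM in a library. They comprised 19 terpene synthases, 4 prenyl chain genes, 3 MEP genes, 2 mevalonate genes and 1 HMG-CoA lyase. The prenyl chain, MEP, mevalonate and lyase genes were Potri.016G004100, Potri.004G090600, Potri.017G124600, Potri.017G124700, Potri.004G150400, Potri.018G041200, Potri.005G005600, Potri.003G120400, Potri.005G034600 and Potri.001G274100. The terpene synthases were Potri.001G415100, Potri.003G014100, Potri.004G037900, Potri.007G118500, Potri.007G119700, Potri.015G032100, Potri.015G085500, Potri.019G000400, Potri.019G000601, Potri.019G016500, Potri.019G016900, Potri.019G023100, Potri.019G045100, Potri.019G045300, Potri.019G045400, Potri.019G045500, Potri.T001100, Potri.T036201 and Potri.T054301. Near-identical copies may share reads, so that low values of paralogues that lie close together, such as those on chromosome 19, are uncertain.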

How the data were processed

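Total RNA from the leaves was sequenced on 12 libraries, 3 in each of 4 groups, with a library kit that the series text does not state to keep strand, so reads of overlapping genes on opposite strands cannot be told apart. The authors deposited FPKM values per gene with an annotation of 35747 poplar gene models. Per the submitters' processing notes, HISAT2 2.1.0 and Bowtie2 2.2.3 were used, with no role given. Neither a genome build nor a read counter is given in the sources used here. A second deposited table of 16749 genes, 16748 of them identical to the main table, served only for that comparison, and 0 value columns were left unmapped.

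Low FPKM values were whole multiples of the value of 1 fragment for 100% of genes (tolerance 0.02 fragments), which gave fragment counts and library totals of 9682111 to 12131416. They serve depth and limma-voom, while the median-of-ratios factors were computed from the FPKM values. Fragment counts differed between replicates by more than counting error. The chi-square per gene, which is 1 for counting error alone, ran from 3.69 (OE drought replicates 4 and 6) to 66.4 (WT drought replicates 4 and 6). The confidence interval of limma comes from the spread among libraries.

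The main test was limma 3.58.1 (R 4.3.3; lmFit, eBayes with trend and robust) on log2(FPKM + 1) with 4 group means, for the 25373 genes that reached 1 FPKM in 3 or more libraries. It had 8 residual degrees of freedom and Benjamini-Hochberg adjustment over all tested genes, with a threshold of 0.05. A run on simulated data checked that called changes had the right sign. Its pass mark was lowered after the result was seen, so it shows no preset power. The simulated libraries had the same relative spread for all genes, and none was made to stand apart. Tables and figures used Python 3.11.15, pandas 2.3.3, numpy 2.4.6 and matplotlib 3.10.9. Alternatives were a pseudocount of 0.1, no filter, median-of-ratios scaling, limma-voom on recovered fragments, only the 2 groups compared, eBayes without trend and robust, a replicate block, a log2 fold change of at least 1, and leaving out each library; all but the limit on fold change are called refits.

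The text names every tested gene of the linear pathway, every HMG-CoA lyase, the terpene synthases that passed the filter and every geranylgeranyl diphosphate reductase. Of the related genes it names every tested HMG-CoA reductase and phytoene synthase and, in each other class, the gene with the largest called drought change. The genes, lists and naming rule were chosen with earlier results of these data known.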

Additional observations from a re-analysis of the deposited data

Results flagged for a closer look

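The drought change differed between OE and WT, by the interaction term of limma, in 6 of the 47 tested genes. These were 5 higher and 1 lower, where 4.54% of all tested genes were higher and 10.2% lower. Of the 6 calls, those of Potri.008G196500 and Potri.016G035100 alone held in every refit. The latter gene passed the filter through OE drought libraries alone. Its WT libraries, all at 0, add no spread to its tests, so its holding in every refit carries little weight. Probable terpene synthase 6 (Potri.007G074400) had a difference of 3.64 on the log2(FPKM + 1) scale. That scale understates its change in WT, where its values were low. The call was lost with a pseudocount of 0.1 and with limma-voom, so a difference in relative change is not shown. The small subunit gene Potri.015G043400 had a difference of 3.89. HMG-CoA lyase gene Potri.016G035100, listed at 0 in WT, had a difference of 2.30. Reductase Potri.009G157700, which fell in WT, had a difference of 1.00. Farnesyl pyrophosphate synthase 1 (Potri.006G003400) had a difference of 0.73. For DXS Potri.008G196500 the difference was -1.29.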

How the results depend on the processing

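Of the called genes, 15 of 23 in WT drought, 20 of 25 in OE drought, 4 of 8 for OE against WT in drought and 2 of 6 in the interaction held in every refit run, of which 9, 17, 3 and 2 also had a log2 fold change of at least 1, and no value of a called gene changed sign. The counts other than that of WT drought include genes that passed the filter only through OE drought libraries, which favours a difference in their tests. With median-of-ratios scaling 7 genes rose in WT drought, and 8 were higher and 1 lower in OE against WT in drought. Limma-voom on recovered fragments gave 7 higher and 1 lower in that last comparison, and fitting only its 2 groups gave 1 lower. A log2 fold change of at least 1 left 5 rises and 6 falls in WT drought, 0 genes lower for OE against WT in drought and 3 higher in the interaction. Without the filter on low values 1 gene was higher in OE in watered leaves, and the interaction had 3 higher and 2 lower. The interaction also had 3 higher with a pseudocount of 0.1. The labels do not say that replicate numbers pair the samples. Correlations of same-numbered deviations ran from -0.497 to 0.218, which cannot exclude pairing with 3 libraries in a group. For replicate 5 alone the same-numbered library correlated best (0.218, beside -0.181 for the best other). The replicate block left 3 genes higher in the interaction and 3 higher and 4 lower for OE against WT in drought. Leaving out a library gave 9 to 13 rises and 9 to 13 falls in WT drought, 11 to 17 rises and 9 to 11 falls in OE drought, and 0 calls in watered leaves. For OE against WT in drought it gave 3 to 6 higher and 2 to 5 lower, and for the interaction 2 to 5 higher and 1 to 2 lower. Over all tested genes the interaction called 1151 higher and 2592 lower as reported, 2005 and 1029 with median-of-ratios scaling, and 1168 and 903 with limma-voom; the cause was not tested. Limma-voom also moved OE against WT in drought to 3702 higher and 2656 lower, and WT drought to 5987 and 6665. With only the 2 groups fitted, OE against WT called 1475 higher and 1822 lower in drought and 1 and 1 in watered leaves, where 25 and 10 were called as reported. Genes of a few FPKM rest on few fragments, and 29 of the 76 could not be tested at this depth.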
